A study of Mus musculus with 8 samples.

Results

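RNA levels of 10 genes of the primary granule programme were followed in mouse blood stem and progenitor cells. They were chosen by name: Mpo, the serine protease genes Elane, Prtn3, Ctsg and Prss57, and the early granulocyte-monocyte or granule genes Ms4a3, Nkg7, Cst7, Srgn and Serpinb1a. All 10 were found by Entrez identifier among the 24112 genes of each table. The cells were Lineage- Sca1+ Kit+ (LSK) cells, the marrow fraction enriched for stem and multipotent progenitor cells, sorted from C57BL/6 mice that had been reconstituted with donor marrow. Donor marrow of both groups carried Vav-Cre, a recombinase expressed from a promoter active in blood cells. It was Vav-Cre+ alone in the wild type group (WT, 4 libraries) and Traf6-/-;Vav-Cre+ in the Traf6 knockout group (KO, 4 libraries). TRAF6 is a ubiquitin ligase that relays Toll-like and interleukin-1 receptor signals to NF-κB, and the study asked what its basal activity does for blood stem cells. The labels give neither age nor time after transplantation, nor a marker that separates donor from host cells in the sort. They also leave unsaid whether each library is a mouse of its own, so a p-value here weighs the groups against library-to-library spread that may be technical.

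Primary (azurophil) granules are the first granules built when a progenitor enters the neutrophil lineage, at the promyelocyte stage. They store myeloperoxidase and a family of serine proteases, packed on the proteoglycan serglycin and made active by cathepsin C. The transcription factors PU.1, C/EBPα, MYB and RUNX1 are known to drive these genes, and their transcripts already appear in granulocyte-monocyte progenitors, just downstream of the LSK gate.

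Because 7 of the 10 genes varied together, the DNA before the start of Mpo, Elane, Prtn3 and Ctsg is shown. Nkg7 is added as a gene that did not vary with them. The windows are the 250 bases upstream of the RefSeq start (build GRCm38.p6, read 5′ to 3′ on the gene's own strand). Capitals mark matches, on either strand, to AACNG (MYB), TGTGGT (RUNX1) or GAGGAA (PU.1).
Mpo, chr11:87793534-87793783, plus strand: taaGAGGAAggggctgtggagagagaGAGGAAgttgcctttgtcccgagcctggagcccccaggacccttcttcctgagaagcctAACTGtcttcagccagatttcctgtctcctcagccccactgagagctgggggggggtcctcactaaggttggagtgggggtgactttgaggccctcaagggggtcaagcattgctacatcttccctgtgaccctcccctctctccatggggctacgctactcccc
Elane, chr10:79886062-79886311, plus strand: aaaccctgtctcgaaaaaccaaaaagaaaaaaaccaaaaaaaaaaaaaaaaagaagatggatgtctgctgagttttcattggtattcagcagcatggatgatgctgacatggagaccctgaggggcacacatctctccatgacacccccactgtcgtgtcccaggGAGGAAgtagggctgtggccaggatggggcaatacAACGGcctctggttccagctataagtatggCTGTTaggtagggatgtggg
Prtn3, chr10:79879417-79879666, plus strand: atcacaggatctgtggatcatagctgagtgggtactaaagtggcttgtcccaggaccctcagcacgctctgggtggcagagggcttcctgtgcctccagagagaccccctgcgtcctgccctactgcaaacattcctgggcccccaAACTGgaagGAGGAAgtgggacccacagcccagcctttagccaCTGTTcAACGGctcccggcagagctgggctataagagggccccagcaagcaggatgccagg
Ctsg, chr14:56102575-56102824, minus strand: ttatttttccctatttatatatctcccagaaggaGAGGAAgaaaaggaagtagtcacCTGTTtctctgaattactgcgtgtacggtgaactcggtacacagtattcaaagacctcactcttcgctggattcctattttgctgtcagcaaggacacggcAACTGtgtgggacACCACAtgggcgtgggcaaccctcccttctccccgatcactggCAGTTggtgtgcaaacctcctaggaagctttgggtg
Nkg7, chr7:43436888-43437137, plus strand: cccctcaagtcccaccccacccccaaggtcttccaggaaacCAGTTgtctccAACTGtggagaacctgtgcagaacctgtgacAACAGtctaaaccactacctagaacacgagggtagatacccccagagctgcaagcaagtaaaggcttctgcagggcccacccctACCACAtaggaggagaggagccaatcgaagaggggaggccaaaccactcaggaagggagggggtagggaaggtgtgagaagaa
Windows were available for 8 of the 10 genes, all but Prss57 and Serpinb1a, and those of Ms4a3, Cst7 and Srgn are not printed. GAGGAA began at -85 from the start of Elane and at -95 from that of Prtn3, and in both genes AACGG followed it, at -50 and -55. Mpo held 2 copies of GAGGAA, at -247 and -224, and Ctsg held 1, at -216. Ctsg also had TGTGGT in reverse (ACCACA) at -79, as Nkg7 had at -83, and Nkg7 had no GAGGAA. Over windows of 300 bases (250 before and 50 after the start), GAGGAA was present in 5 of 9 windows of these genes (Mpo, Elane, Prtn3, Ctsg and Ms4a3) and in 28.3% of 32851 windows of all genes. Cst7, which varied with Mpo, had no GAGGAA in its window, nor had Nkg7 and Srgn, which did not. TGTGGT was present in 4 of 9 windows (16.8% of all), those of Cst7, Ctsg, Nkg7 and Srgn. AACNG was present in 8 of 9 (80.3%) and TTGCNNAA, a C/EBP motif, in 2 of 9 (10.8%), those of Cst7 and Ms4a3. Neither GAGGAA nor TGTGGT thus divided the genes that varied together from the others. These are matches of letters only.

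Values are RPKM, reads scaled to gene length and library depth, so levels of different genes can be set side by side. Depth, estimated from the steps between low values, was about 19.1 to 30.6 M reads in 7 libraries and either 20.1 or 40.2 in WT3. The lowest value of any of the 10 genes, 4.79 RPKM of Prss57 in WT1, then stands for about 96.8 reads per kilobase, and none of the 10 was listed at 0 anywhere. Lane 5 of the sequencer held KO3 and KO4, and lane 4 held all 4 WT libraries with KO1 and KO2. KO3 listed 4.44% of genes with a mean above 20 RPKM at 0, KO4 1.55%, WT2 1.19% and the other 5 libraries 0.152% to 0.507%, so a 0 does not show absence. Traf6 measured 14.9, 3.52, 9.40 and 7.10 RPKM in WT1 to WT4, against 0.613, 0.818, 0 and 0.00721 in KO1 to KO4, with no overlap. The difference was -2.75 ± 0.53 on the log2(RPKM + 1) scale (limma adjusted p = 0.341). The added 1 RPKM shrinks it at such low levels, and with 0.1 added it was -4.75. Which bases were deleted is not stated, so remaining reads cannot be placed. Of the sorting genes, Kit lay between 50.6 and 113 RPKM and Ly6a, which encodes Sca1, between 6.53 and 11.8. The lineage genes Cd3e, Cd4 and Cd8a stayed under 1 RPKM in every library. Others of the lineage list did not: the myeloid gene Ly6c2 ran from 0 to 29.8 RPKM in WT and from 0 to 67.0 in KO. Itgam and Ptprc are described below with that list.

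Myeloperoxidase (Mpo, Entrez 17523), the heme enzyme that makes hypochlorous acid, was the most abundant of the 10 genes in 7 of 8 libraries. Its RPKM were 337, 779, 938 and 972 in WT1 to WT4 and 3687, 2167, 1499.9 and 1367 in KO1 to KO4. Every KO library was above every WT library, and WT1 and KO1 formed the ends of the range. In bulk RNA, more cells of a type and more RNA per cell cannot be told apart. Among all 24112 genes, Mpo ranked between 184 and 76 in WT and between 35 and 5 in KO. The means were 757 ± 292 and 2180.1 ± 1063 RPKM (SD, n = 4), 2.88 times apart. The log2(RPKM + 1) scale understates changes, slightly at levels such as these and more at low RPKM. On it the KO minus WT difference was 1.52 ± 0.40 (SE), with a limma adjusted p of 0.451 over the 11276 genes tested.

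The serine proteases followed the same libraries. Elane (50701), neutrophil elastase, measured 49.3, 264, 266 and 307 RPKM in WT1 to WT4, against 1204, 413, 513 and 228 in KO1 to KO4. KO4 fell inside the WT range, and WT1 lay far below the other WT libraries. Prtn3 (19152), proteinase 3, measured 165, 291, 354 and 432 RPKM in WT1 to WT4, against 2270.1, 823, 627 and 376 in KO1 to KO4, again with KO4 inside the WT range. Ctsg (13035), cathepsin G, measured 32.1, 48.2, 43.4 and 61.0 RPKM in WT1 to WT4, against 415, 173, 109 and 61.5 in KO1 to KO4. The groups of Ctsg did not overlap, but WT4 and KO4 almost touched. Prss57 (73106), the least abundant member of the family and the last of the 10 genes in every library, measured 4.79, 17.7, 8.73 and 13.6 RPKM in WT1 to WT4, against 43.1, 22.2, 16.0 and 16.0 in KO1 to KO4. WT2 lay above KO3 and KO4 for this gene. Thus the enzymes were high in KO1 and low in WT1, and KO4 was near the WT libraries for each protease. The log2 differences were 1.43 ± 0.65 for Elane, 1.47 ± 0.51 for Prtn3, 1.70 ± 0.50 for Ctsg and 1.07 ± 0.44 for Prss57, and the limma adjusted p of the 4 genes lay between 0.515 and 0.665.

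**Figure D1:**
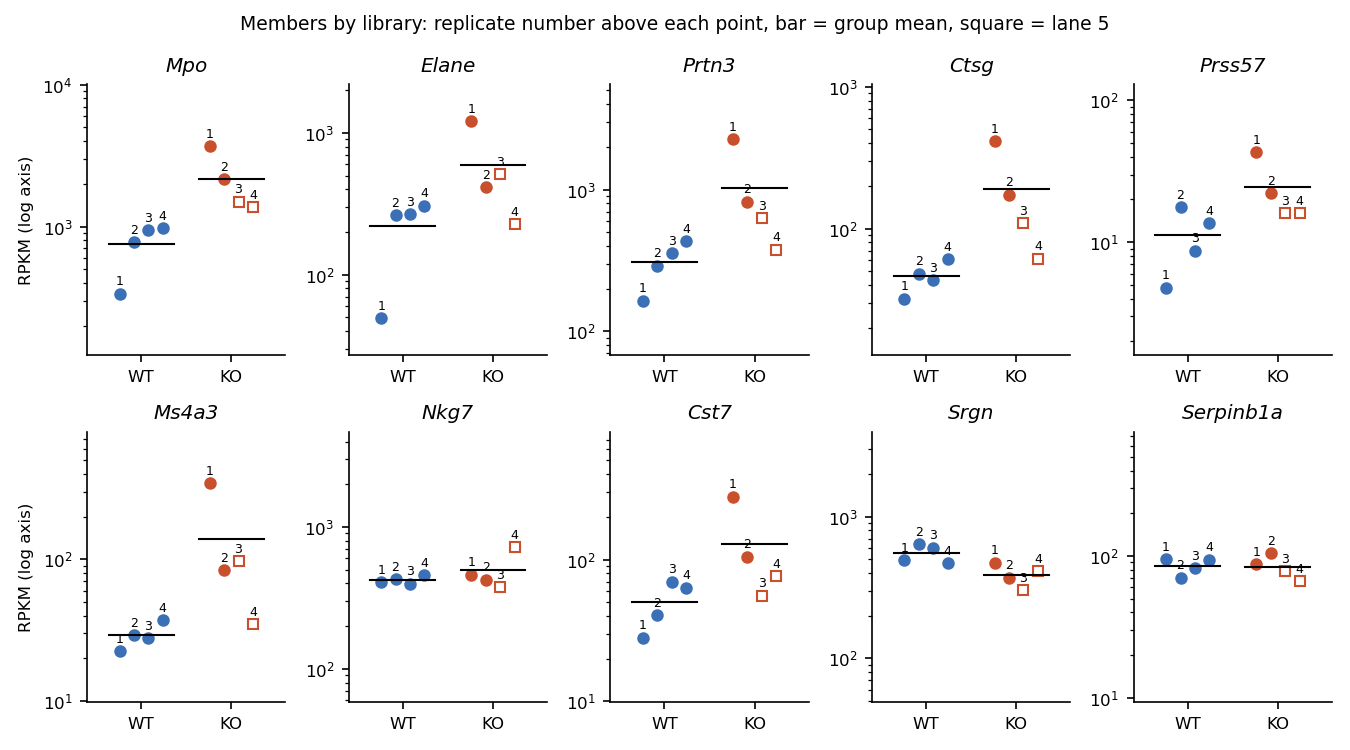
RPKM of each of the 10 genes on a log axis (every panel spans the same fold range), by group; points are libraries with the replicate number above them, open squares are lane 5 and bars are group means. In 7 genes KO1 is the highest and WT1 the lowest point, whereas Nkg7 is highest in KO4, Srgn in WT2 and Serpinb1a in KO2.

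Ms4a3 and Cst7 varied with the enzymes. Ms4a3 (170813), a membrane protein used to mark granulocyte-monocyte progenitors, measured 22.6, 29.1, 27.8 and 37.1 RPKM in WT1 to WT4, against 344, 83.5, 97.3 and 35.0 in KO1 to KO4. KO1 was 3.54 times the next highest library, and KO4 lay below WT4. Its log2 difference, 1.76 ± 0.57, was the largest of the 10 genes. Cst7 (13011), cystatin F, an inhibitor of the cathepsins that activate granule proteases, measured 28.2, 40.4, 69.7 and 63.4 RPKM in WT1 to WT4, against 278, 105, 55.5 and 76.6 in KO1 to KO4. KO3 lay inside the WT range, and the difference was 1.14 ± 0.48. The limma adjusted p was 0.591 for Ms4a3 and 0.645 for Cst7.

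Nkg7, Srgn and Serpinb1a did not share that pattern. Srgn (19073), the serglycin core protein on which granule proteases are stored, measured 492, 641, 603 and 471 RPKM in WT1 to WT4, against 474, 372, 303 and 411 in KO1 to KO4. WT4 lay just below KO1, the only crossing of the groups, and the difference was -0.50 ± 0.18 (limma adjusted p = 0.627), opposite in sign to the enzymes. Nkg7 (72310), a granule membrane protein best known from killer lymphocytes, measured 409, 430.0, 398 and 455 RPKM in WT1 to WT4, against 461, 425, 376 and 723 in KO1 to KO4. Only KO4 stood clear of the WT range on the high side, and the difference, 0.19 ± 0.20, became -0.01 without KO4. Serpinb1a (66222), a cytosolic inhibitor of elastase, proteinase 3 and cathepsin G, measured 95.3, 70.4, 82.3 and 94.4 RPKM in WT1 to WT4, against 87.8, 105, 78.0 and 66.5 in KO1 to KO4, a difference of -0.03 ± 0.20. Its limma adjusted p was 0.972 and that of Nkg7 0.805.

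Of the 10 genes, 0 passed the limma test at an adjusted p of 0.05, as did 0 of all 11276 genes tested (0%). All 10 had passed the filter on low values. At an unadjusted p under 0.05, 6 were higher in KO (Mpo, Ctsg, Ms4a3, Prtn3, Prss57 and Cst7), against 2.77% of all genes tested, and 1 was lower (Srgn), against 4.74%. All KO values lay above all WT values in 2 of the 10 (Mpo and Ctsg), against 2.05% of all genes, and below them in 0, against 3.88%. With library weights, a fit that trusts libraries unequally, 2 of the 10 passed with higher levels in KO (Mpo and Ctsg), against 0.594% of all genes. With weights estimated again after a library was left out, this count was 1 (Mpo) without WT1. It was 0 without KO1 or without KO2. Positive differences were found in 8 of the 10 genes and in 39.0% of all genes, and the medians were 1.29 and -0.14. The 10 genes are not independent of each other, since they vary over the same libraries. They had also been named with earlier results of these data known, so these counts describe the list and are no test of it.

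For the 4 proteases, Mpo, Ms4a3 and Cst7, the differences became smaller when WT1 and KO1 were left out. That direction was fixed in advance, since KO1 held the highest and WT1 the lowest value of each of these genes. It is therefore no test of the differences. KO1 was the highest library in 7 of the 10 genes (9.93% of all genes tested) and WT1 the lowest in the same 7 (8.63%), and both held together in 1.45% of all genes, a pattern noticed after the values were seen. Without KO1 the log2 differences became 1.23 for Mpo, 1.004 for Elane, 0.98 for Prtn3, 1.21 for Ctsg, 0.76 for Prss57, 1.17 for Ms4a3 and 0.68 for Cst7. Without both WT1 and KO1 they became 0.88, 0.39, 0.71, 1.05, 0.45, 1.06 and 0.43 in the same order, all still positive. Srgn went from -0.50 to -0.66 without both, Nkg7 was at 0.19 with and without them, and Serpinb1a was at -0.00. Elane thus fell the furthest, Cst7, Prss57 and Prtn3 also lost most of their differences, and Ctsg and Ms4a3 kept the largest. In the lane 4 libraries alone, which leave KO1 and KO2 against all 4 WT libraries, the differences of these 7 genes lay between 1.52 (Prss57) and 2.55 (Ctsg). KO3 and KO4, left out there, held the lowest KO values of Mpo, Prtn3, Ctsg, Prss57 and Cst7. For Elane and Ms4a3, KO4 held the lowest. The larger differences in lane 4 were therefore also fixed in advance and are no test. Lane 5 holds KO libraries only, so no comparison within it was possible.

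**Figure D2:**
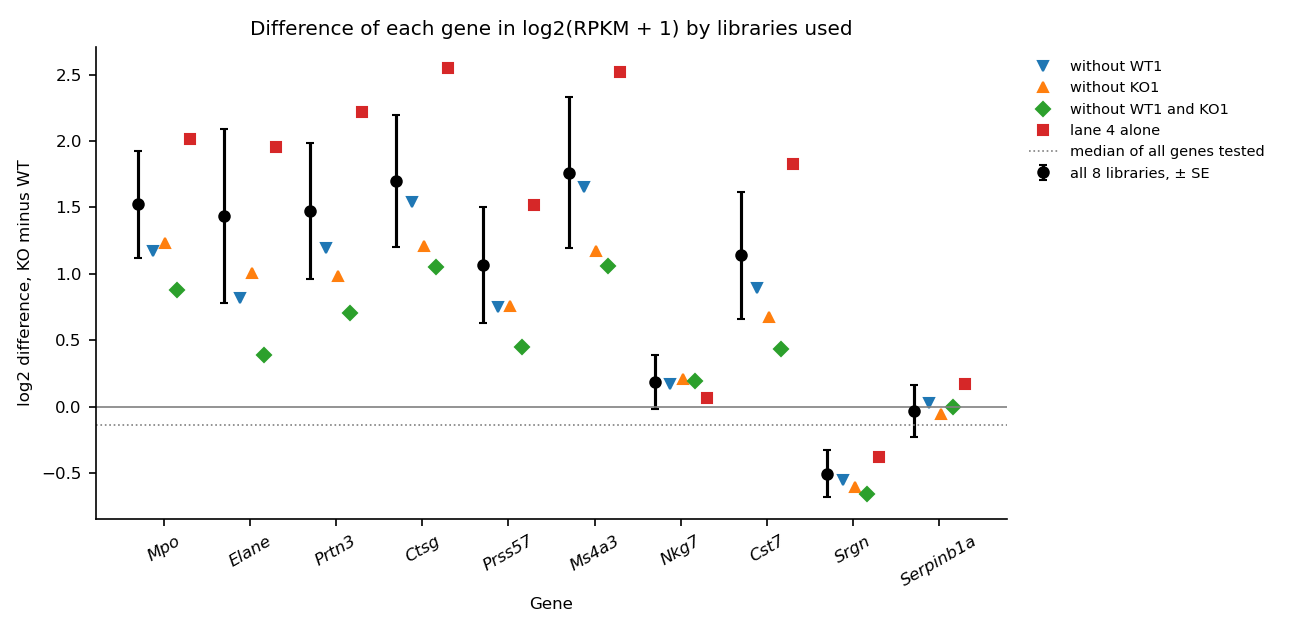
Log2 difference (KO minus WT, log2(RPKM + 1)) of each gene with all 8 libraries (black, ± SE), without WT1, without KO1, without both, and in lane 4 alone; the dotted line is the median of all genes tested. The 7 enzyme and progenitor genes stay above 0 in each setting and come closest to it without WT1 and KO1. Leaving these libraries out had to lower the differences, since they held the lowest and highest values of these genes. Lane 4 alone had to raise them, since KO3 or KO4, left out there, held the lowest KO value of each.

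How alike the profiles were was measured as the root mean square difference of log2(RPKM + 1) over the 8 libraries after each gene's mean had been taken away. The closest pair was Prtn3 and Ctsg, at 0.23 log2 units, followed by Ctsg and Ms4a3 at 0.27 and Mpo and Prtn3 at 0.32. Prtn3 and Elane, neighbours in the genome, were farther apart, at 0.47. Srgn, Serpinb1a and Nkg7 lay between 0.42 and 0.44 from each other, each with at most 2.11 times between its highest and lowest library, and between 0.80 and 1.39 from the 7 others. Of all genes tested, the 5 closest to Mpo were Prtn3 (0.32), Ctsz (0.34), Csf1r (0.34), Rrp9 (0.37) and Cst7 (0.37). Prss57, Ctsg and Elane came at places 8, 10 and 13 and Ms4a3 at place 50, whereas Nkg7 came at place 1994 and Srgn at 4995. Ctsz, the lysosomal cathepsin Z, ranged over 51.2 to 103 RPKM in WT, against 129.9 to 274 in KO. Csf1r, the macrophage colony-stimulating factor receptor, ranged over 0.542 to 5.79 RPKM in WT, against 6.04 to 22.0 in KO. Rrp9, a ribosomal RNA processing factor, ranged over 10.3 to 19.0 RPKM in WT, against 26.2 to 45.4 in KO. Ctsz, Csf1r and Rrp9 were picked for likeness to Mpo, whose own groups did not overlap. Their separated ranges therefore follow largely from that choice. All KO values lay above all WT values in 2.05% of all genes tested.

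**Figure D3:**
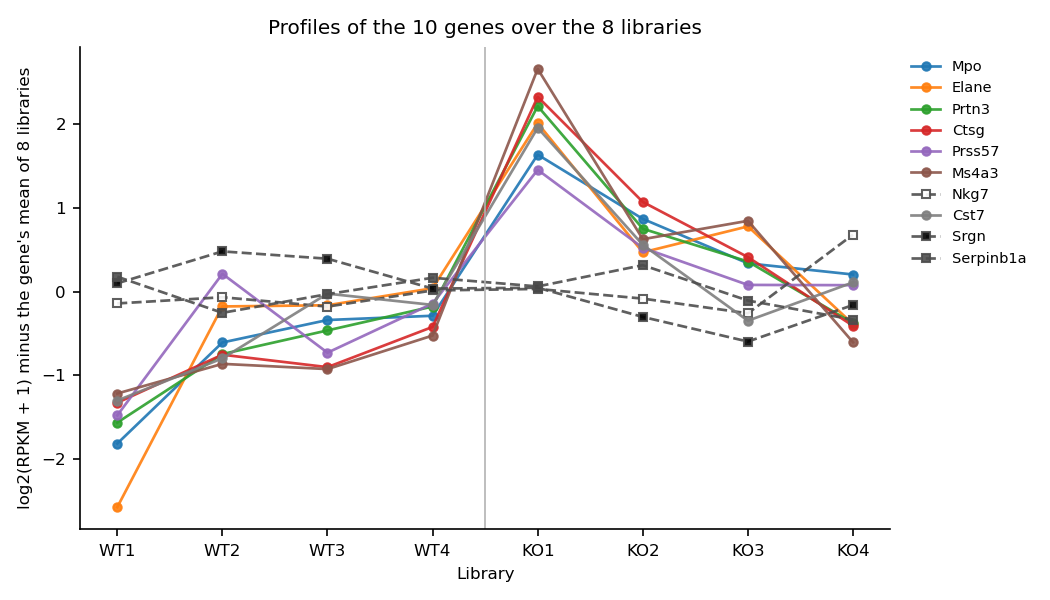
Log2(RPKM + 1) of each gene minus its mean over the 8 libraries, by library, WT left and KO right of the line. The 7 solid profiles run from WT1 at the bottom to KO1 at the top, and the 3 dashed ones (Nkg7, Srgn, Serpinb1a) do not share that course.

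Within a library the enzymes kept more even proportions than their levels. Mpo differed by 10.9 times between its lowest and highest library and Elane by 24.4 times, whereas the ratio of Elane to Mpo ran from 0.146 (WT1) to 0.342 (KO3). The ratio of Prtn3 to Mpo ran from 0.275 (KO4) to 0.616 (KO1), and that of Ctsg to Mpo from 0.0450 (KO4) to 0.112 (KO1). The mean Prtn3 to Mpo ratio was 0.421 ± 0.0556 in WT and 0.422 ± 0.142 in KO (SD, n = 4), a difference well inside the spread. The ratio of Srgn to Mpo was 1.46, 0.822, 0.643 and 0.484 in WT1 to WT4 and 0.129, 0.172, 0.202 and 0.3004 in KO1 to KO4, with no overlap. Transcripts of the cargo carrier therefore outnumbered those of Mpo, per length, in WT1 alone. The groups of Mpo, the denominator, did not overlap either, so the separation of this ratio follows largely from Mpo.

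The 10 genes made up 0.349%, 0.575%, 0.589% and 0.584% of the summed RPKM of WT1 to WT4 and 1.86%, 0.952%, 0.764% and 0.69997% of that of KO1 to KO4. The share of every KO library exceeded that of every WT library. Mpo, whose own groups did not overlap, made up 20.6% (WT1) to 46.2% (KO2) of the sum of the 10 genes. Nkg7 added its highest value, 723 RPKM, in KO4. Only Mpo and Ctsg had groups without overlap, so the sum does not show a separation of each gene. Mpo alone took 0.741% in KO1 and 0.0719% in WT1.

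**Figure D4:**
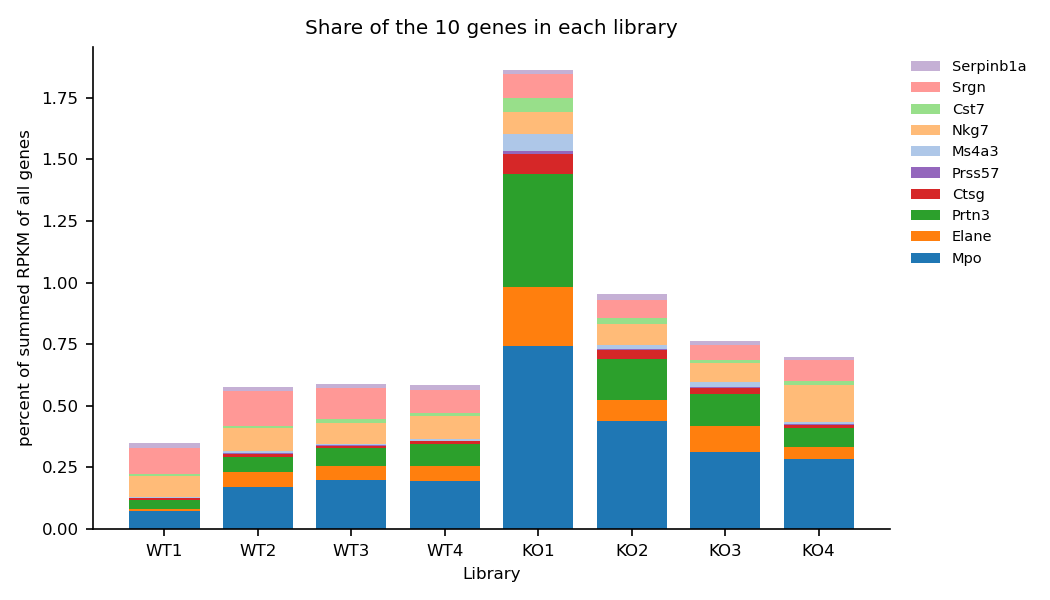
Percent of the summed RPKM of all genes held by the 10 genes in each library, stacked by gene. The stack of KO1 reaches 1.86% and that of WT1 0.349%, while the highest and lowest RPKM of Srgn were 2.11 times apart and those of Nkg7 1.92 times.

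The neighbourhoods of the enzyme genes did not share one pattern. Prtn3 and Elane lie next to each other, and 4 protein-coding genes separate Prtn3 from Prss57 on the same chromosome. Beside them, Ptbp1, Plppr3, Med16 and R3hdm4 had log2 differences of 0.25, 0.16, 0.24 and 0.20, each with overlapping groups, and Cfd was listed at 0 in all libraries. Beside Mpo, Supt4a and Tspoap1 had differences of 0.52 and 0.09, the ciliary gene Mks1 -1.11 and the eosinophil peroxidase gene Epx -0.80, both listed at 0 in KO3 and KO4, and the lactoperoxidase gene Lpo stayed under 1 RPKM. Ctsg lies in the cluster of granzyme and mast cell protease genes. There Gzme, Gzmd, Gzmg and Mcpt9 were listed at 0 in all libraries, Mcpt4 reached 1.32 RPKM in KO1 alone, and Mcpt8, a basophil protease, ranged over 0.0620 to 28.7 RPKM in WT, against 0.0471 to 45.2 in KO. Rnf43, beside Supt4a, did not pass the filter on low values. None of the neighbours tested passed the limma test.

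Genes that process, carry or inhibit granule enzymes differed in both directions. Of 21 tested in this list, 0 passed the limma test in either direction, and the median was 0.05 against -0.14 for all genes. Differences were positive in 12 (57.1%, against 39.0% of all genes) and negative in 9. KO1 was the highest library in 7 of the 21 (33.3%, against 9.93% of all genes). Ctsc, Cd63, Serpinb1b and Igf2r among the negative ones, and Cstb and Slpi among the positive ones, were listed at 0 in KO3. Calr, the chaperone that folds the myeloperoxidase precursor, measured 1047, 1271, 1194 and 1348 RPKM in WT1 to WT4, against 3137, 1825, 1558 and 1262 in KO1 to KO4 (0.60 ± 0.25). KO1 again was highest, and KO4 lay inside the WT range. Cst3, cystatin C, averaged 237 ± 42.6 RPKM in WT, against 242 ± 38.0 in KO. Ctsc, cathepsin C, the activator of the serine proteases, was at 6.89 to 16.8 RPKM in WT and at 27.9, 19.2 and 12.1 in KO1, KO2 and KO4, and it was listed at 0 in KO3.

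Among 12 transcription factors of the granulocyte-monocyte lineage, 0 passed the limma test, 8 had positive and 4 negative differences, and the median was 0.23. Of all genes tested, 39.0% had positive differences, and the median was -0.14. The 4 negative ones were Id2 (-1.90 ± 0.81), Klf4 (-1.36 ± 0.64), Cebpb (-0.68 ± 1.04) and Gata2 (-0.09 ± 0.19). Id2 and Cebpb were listed at 0 in KO4 and Klf4 in KO3. Cebpa, a driver of granulocyte commitment, ranged over 5.03 to 12.3 RPKM in WT, against 29.4, 20.8, 15.3 and 17.0 in KO1 to KO4 (1.22 ± 0.36), with no overlap of the groups. Irf8, which favours monocytes, ranged over 9.54 to 28.9 RPKM in WT, against 31.9 to 42.0 in KO (1.14 ± 0.34), also without overlap. All KO values lay above all WT values in these 2 of the 12 genes and in 2.05% of all genes tested. Gfi1, a repressor needed for neutrophils, was at 0.628 RPKM in WT1, at 6.33 to 10.5 in the other WT libraries and at 28.6, 11.8, 10.2 and 15.6 in KO. Myb and Spi1, the most abundant of the list by the mean over all 8 libraries (Gata2 was above Spi1 in WT, at 46.2 against 42.4 RPKM), had differences of 0.10 ± 0.16 and 0.29 ± 0.56.

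Genes of later granules were mostly low. Of 15 genes listed for secondary and tertiary granules, 5 passed the filter on low values, 0 passed the limma test, and 6 stayed under 1 RPKM in every library, among them Ltf and Camp. The list also holds Padi4 and Ltb4r1, whose products are not granule contents. The 5 tested had a median of 1.77, 4 of them positive, but the other 10 were left out by the filter on low values and enter no count. Of the 5, 3 were highest in KO1. Lcn2, lipocalin-2, was at 142 RPKM in KO1, at 12.6 in KO2 and at 0 to 2.78 in the other 6 libraries, and Hp, haptoglobin, at 256, 57.0 and 0 to 20.7. Cybb, the catalytic subunit of the phagocyte oxidase, ranged over 0.329 to 2.23 RPKM in WT, against 12.8, 2.84, 9.80 and 2.60 in KO1 to KO4. Ltb4r1, a leukotriene B4 receptor, was highest in KO3 and KO4, at 2.95, 4.21, 16.5 and 6.57 RPKM in WT1 to WT4, against 18.5, 12.3, 30.2 and 25.5 in KO1 to KO4 (1.57 ± 0.49, limma adjusted p = 0.541). Padi4 was at 36.6 ± 6.82 and 35.2 ± 3.67 RPKM. The summed RPKM of the 15 genes, much of it Padi4 in WT, ran from 41.4 to 68.4 in WT and from 73.9 to 468 in KO, the highest in KO1.

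Markers of other cells varied in part with the enzymes. Of 10 mature neutrophil markers, 9 were in the tables and 4 were tested, with 0 past the limma test and a median of -0.09, and the list's summed RPKM was 73.9 to 87.1 in WT and 65.7 to 115 in KO. Most of that sum was Csf3r, at 47.7 ± 11.1 and 45.9 ± 7.05 RPKM, and Cxcr2, at 25.2 ± 2.06 and 22.8 ± 3.04. S100a9 was at 0 in WT1 to WT3 and at 6.38 RPKM in WT4, and at 9.03, 3.48, 0 and 35.7 in KO1 to KO4, the highest in KO4, which also had the highest sum. S100a8, not tested, was at 0 in 3 WT libraries and at 15.0 RPKM in KO1, its highest value. Of 10 monocyte markers, 9 were tested, with 0 past the limma test, 6 positive and a median of 1.27. Their summed RPKM ran from 72.7 to 125 in WT and from 63.0 to 255 in KO, with the highest sum in KO1. KO1 was the highest library in 5 of the 9 tested, against 9.93% of all genes tested. Within this list F13a1, coagulation factor XIII, ranged over 5.36 to 12.7 RPKM in WT, against 67.4, 28.6, 7.15 and 13.8 in KO1 to KO4. Ms4a6c, at 2.86 to 10.1 RPKM in WT and 11.6 to 23.3 in KO, was highest in KO2. Cx3cr1 ranged over 1.07 to 4.14 RPKM in WT, against 2.50, 4.01, 10.6 and 13.5 in KO1 to KO4. Ccr2, a chemokine receptor, lay the other way, at 37.3 to 57.1 RPKM in WT and 5.92 to 36.3 in KO, and Ly6c2 was at 0 to 29.8 and 0 to 67.0.

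Cytotoxic lymphocytes, which also express Nkg7, Srgn and Cst7, have markers that were low or listed at 0. Of 13 of their markers, 8 stayed under 1 RPKM in every library, 4 of these at 0 throughout, and 3 were tested, with 0 past the limma test and a median of -0.20. Their summed RPKM was 9.77 to 22.7 in WT and 3.64 to 55.0 in KO. Nearly all of the highest sum, in KO3, was Ccl5 (46.8) and Klrb1c (8.20). The part of such cells in the level of Nkg7 was not tested. Of 14 mast cell, basophil and eosinophil markers, 8 were tested, with 0 past the limma test, 5 positive and a median of 0.36. Their sum was 47.9 to 172 RPKM in WT and 94.6 to 197 in KO, led by Cpa3 (39.2 ± 13.95 and 56.2 ± 14.6) and Prg2 (21.8 ± 20.2 and 28.4 ± 22.7).

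All 10 genes of the LSK gate and stem cell list had negative differences, with a median of -0.81 and 0 past the limma test. Of all 11276 genes tested, 6878 had negative differences, with a median of -0.14. The summed RPKM of the stem cell list ran from 468 to 582 in WT and from 308 to 509 in KO, with the lowest sum in KO1. Flt3, a receptor of multipotent progenitors, measured 89.2, 85.5, 78.3 and 59.3 RPKM in WT1 to WT4, against 31.4, 42.5, 54.0 and 52.1 in KO1 to KO4. Mecom, a stem cell transcription factor, ranged over 4.99 to 10.3 RPKM in WT, against 0 to 3.36 in KO, where a 0 does not show absence. Flt3 and Mecom were the 2 genes of this list with all KO values below all WT values, against 3.88% of all genes tested. Cd34 and Kit, the most abundant of the list, had differences of -0.17 ± 0.18 and -0.13 ± 0.24. Of 9 lineage genes, 3 were tested, with 0 past the limma test, 2 positive and a median of 1.301. Among these, Itgam, the myeloid integrin CD11b, ranged over 0.707 to 2.76 RPKM in WT, against 5.92 to 22.8 in KO, the highest in KO3, and Ptprc was at 30.2 ± 9.53 and 22.3 ± 6.71. KO1 thus carried the highest levels of 7 of the 10 genes, the highest sums of the monocyte and later granule lists and the lowest sum of the stem cell list. The part of these other cells in the levels of the 10 genes was not tested.

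**Figure D5:**
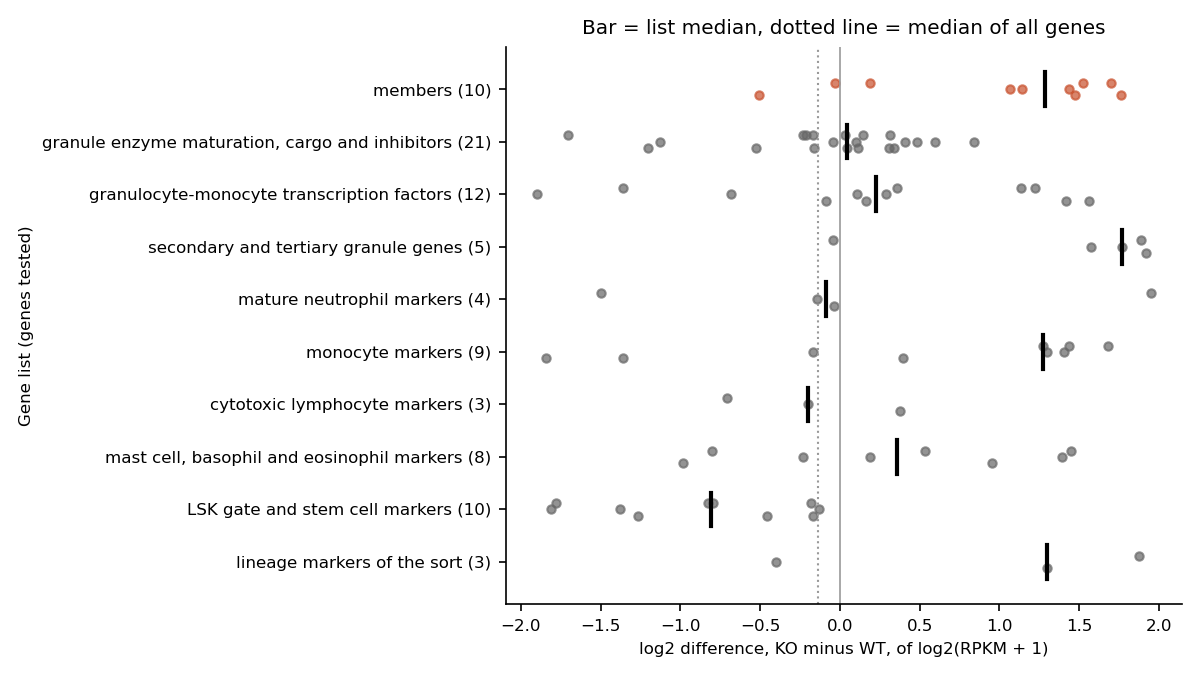
Log2 difference (KO minus WT) of each tested gene in the 10 genes studied here (top row) and in each companion list, with the number of genes tested in brackets; bars are list medians and the dotted line is the median of all genes. The stem cell list lies wholly below 0, and 7 of the 10 genes in the top row lie above 1.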

How the data were processed

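RNA of LSK cells was measured in 8 libraries, 4 WT and 4 KO, grouped by title. Poly(A) RNA was selected from 100 ng of RNA, per the labels' protocols. TopHat, edgeR and mm9 appear, per the submitters' processing notes, with no role or version, and the counting tool and annotation were not given in sources used here. Deposited by the authors is 1 RPKM value per gene and library; the unit was inferred from the values, since neither labels nor headers state it. Symbols came from a GRCm38.p6 RefSeq table (24029 of 24112 identifiers matched); because the build differs, gene coordinates are given only for the RefSeq windows printed. No library shared values above 0 with another of its group.

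Genes reaching 1 RPKM in 4 or more libraries (11276) were tested as log2(RPKM + 1) with limma 3.58.1 in R 4.3.3 (all 8 libraries, genotype only, eBayes with trend and robust variance, Benjamini-Hochberg adjusted p under 0.05). Depth was fitted to steps of low values with 71.2% to 77.3% of values within 0.1 of a whole read, so it is approximate; without recovered reads a count test could not be used. The fit was checked on simulated data. Of the 50-base words of the longest GENCODE transcripts, only those of Serpinb1a were shared with other genes (3.42%, with Serpinb1b, Serpinb1c and a pseudogene) among the 10 genes, so reads of Serpinb1a may be split. Alternatives were the filter, pseudocount, lane, replicate block, weights, scaling, threshold and libraries left out.

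Named were all 10 genes, Traf6, the 2 most abundant tested genes per companion list and any past the threshold, 3 neighbours on each side of Mpo, Elane and Ctsg, and the 5 profiles closest to Mpo. Other genes named in the companion lists were chosen after their values were seen. The 10 genes and all lists were chosen with earlier results of these data known. Protein sequences were not used here.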

Additional observations from a re-analysis of the deposited data

Results flagged for a closer look

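Elane in the WT group had 1 library far from the others: WT1, at 49.3 RPKM, lay below WT2 at 264, WT3 at 266 and WT4 at 307, and the gap to the nearest made up 0.833 of the group's range, above Dixon's critical value for 4 samples. It was the only such case among 24 groups of 4 libraries examined (the 10 genes, Traf6 and the summed level, in WT and in KO), and chance gives about 1 in 20. In KO the corresponding shares for KO1, the highest library, were below it, at 0.799 for Ms4a3, 0.778 for Cst7, 0.773 for Prss57 and 0.764 for Prtn3.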

How the results depend on the processing

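None of the 10 genes passed the threshold in 21 of 23 alternatives; the exceptions were library weights (2 genes, Mpo with 1.66, adjusted p = 0.0497, and Ctsg with 2.06, adjusted p = 0.0270, in limma) and weights without WT1 (1 gene, Mpo, 1.31), the latter chosen after seeing the data, as were the other weighted fits with a library left out and the fit without WT1 and KO1. Over their alternatives the limma adjusted p lay between 0.0296 and 0.889 for Mpo and between 0.0270 and 0.889 for Ctsg. The weights over all 8 libraries gave KO2 6.50 and KO3 0.137. Weights were estimated again when a library was left out, and without KO1 or KO2 those fits called 0 of the 10 genes. Over all genes the count of 0 became 164 with weights (67 higher), 58 without WT1 and 1 without KO2, 2 in lane 4 alone and 3 without WT2, KO3 and KO4; leaving out 1 library gave 0 to 2, the 2 without KO3. The cause was not tested. The difference of Mpo ran from 1.17 to 1.71, of Ctsg from 1.21 to 2.12, of Elane from 0.82 to 1.80 and of Srgn from -0.60 to -0.39 when 1 library was left out. Signs changed only for genes near 0: Nkg7 (-0.0103 without KO4, from there to 0.303 with another library left out) and Serpinb1a, at 0.17 with lane as a covariate and in lane 4 alone, 0.18 with weights, 0.23 with weights without WT1, 0.0743 with weights without KO1, 0.0844 without WT2, KO3 and KO4, 0.0236 without WT1, 0.0193 without WT4 and 0.0752 without KO4 (-0.141 to 0.0752 over the libraries left out). Quantile normalization moved the median of all genes from -0.14 to 0.00; Mpo was then at 1.49. With the replicate number as a block, 0 genes were called and 5 of the 10 had an unadjusted p under 0.05, against 7 in all without it. The numbers did not pair the libraries: correlations of deviations ran from -0.08 to -0.04, and no library matched its own number best. A DESeq2 or edgeR test was not run because whole reads were not recovered.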
